A study of Mus musculus with 24 samples.

Results

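The response of the liver to the beta3 adrenergic agonist CL316243 was described in mice whose hepatocytes lack PPARα. The comparison used 12 of the 24 arrays of the series, those of 6 LKO mice given CL316243 and of 6 LKO mice given the vehicle, picked by labelled genotype and treatment. The labels call the agonist groups Beta3. All were male C57Bl/6J mice with free access to a standard diet. CL316243 was given by gavage at 3 mg/kg in 0.5% carboxymethyl cellulose at Zeitgeber time (ZT, hours after lights on) 10 h, the vehicle mice received 0.5% carboxymethyl cellulose alone, and every liver was taken at ZT 16 h. LKO stands for loss of PPARα in hepatocytes, as the series describes it. The Cre line, the deleted part of the gene and the age of the mice are not given in the sources used here, and cells other than hepatocytes are taken to keep the gene. Groups of 6 LWT mice (PPARα present in hepatocytes) under the same 2 treatments served only to test whether an effect differed between genotypes. Each mouse gave 1 single-colour array of whole-liver RNA.

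Beta3 adrenergic receptors are known mainly from adipocytes, where agonists trigger lipolysis and send fatty acids to the liver. PPARα is a nuclear receptor that is activated by fatty acids in hepatocytes and switches on genes of fatty acid oxidation, ketogenesis and lipid droplet turnover. The question asked here was which liver functions respond to the agonist where hepatocytes lack this receptor. In whole-liver RNA, fewer cells of a type and less RNA per cell cannot be told apart.

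Levels are log2 signals relative to the 75th percentile of the same array, differences are treated minus vehicle on that log2 scale with their standard error (SE), and n is 6 mice per group throughout. Genes were called with limma at an adjusted p under 0.05 (Benjamini-Hochberg over all genes tested), and "rose" and "fell" are used of called genes. Counts of 0 given for a list over all mice were also 0 by limma at an unadjusted p under 0.05, except for 1 Kupffer cell marker that was lower and 1 cholesterol gene whose LKO effect was lower. Among the LKO arrays, treated replicate 3 stood apart: its mean correlation with the other treated arrays was 0.972, and that of each of the other 11 LKO arrays with its own group was 0.983 or more. Some results are given with and without it. Of the 188 genes named here and called in LKO, 8 lost their call without it, and the log2 changes of 3 shrank by more than 1.5 times. Sizes of other genes are given with it only, and it was the highest treated mouse for Socs3, Irs2, Il1rn, Akap12 and Slc16a1. Ppara itself (probe on chromosome 15, 85632110 to 85632169, mm9, the build of all probe coordinates given here) was read at levels from 4.8 to 5.18 (median 5.01) in the vehicle mice and from 3.06 to 4.85 (median 4.51) in the treated mice. It fell by 0.69 ± 0.20 (adjusted p 0.01), and by 0.43 (adjusted p 0.00761) without treated replicate 3, which had the lowest level. Since the deleted part is unknown, the probe may lie outside it and then checks nothing. Hepatocyte markers were high in all 12 livers, with a summed linear level of 3042 to 3733 in vehicle and 2904 to 3844 in treated mice, in units of each array's 75th percentile, and 2 of 10 rose and 2 fell.

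CL316243 changed a large part of the liver transcriptome without hepatocyte PPARα. Of 21331 genes tested, 4461 rose (20.9%) and 4135 fell (19.4%), and 915 rose (4.29%) and 714 fell (3.35%) by at least 2-fold. The counts without treated replicate 3 were 4049 and 3786, and 780 and 555 at 2-fold. The arrays lay on 3 slides with 2 mice of each group on each. The median difference over all genes was 0.027. These shares of all genes are the background against which each list of related genes is read. The lists with the largest shares of increases were acute phase, ATF4, immediate early, NF-κB, growth arrest and interferon-response genes, from 60.6% to 90.0% called higher. Those with the largest shares of decreases were amino acid catabolism, peroxisomal, NAD and ketone genes, from 55.6% to 63.9% called lower.

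**Figure D1:**
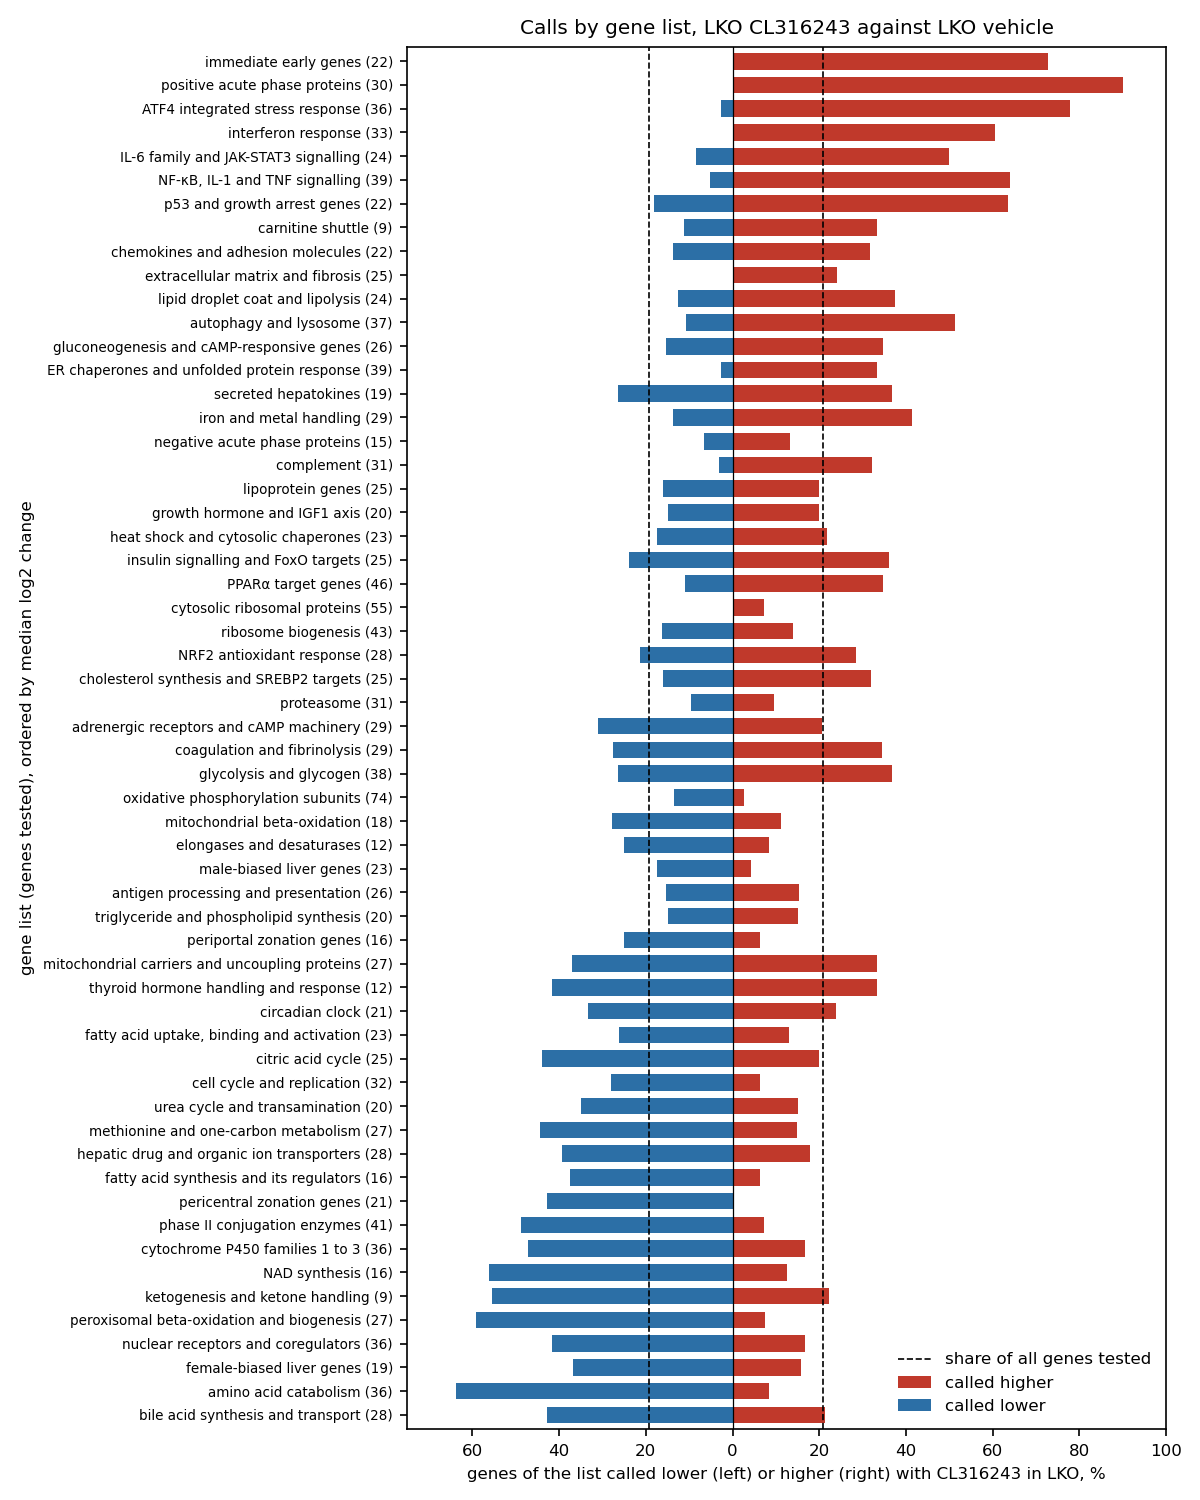
Share of each gene list called higher (right, red) or lower (left, blue) with CL316243 in LKO livers, in percent of the genes tested (number in brackets), ordered by the list's median log2 difference; dashed lines mark the shares over all genes tested, 20.9% higher and 19.4% lower. Immediate early and acute phase genes stand at the top, and amino acid catabolism and bile acid genes at the bottom.

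Positive acute phase proteins, which the liver secretes in inflammation, moved together. Of 30 genes, 27 rose and 0 fell against a background of 20.9% and 19.4%, with a median difference of 1.3 (1.51, 0.96 and 1.31 within slides 1, 2 and 3). Without treated replicate 3, 27 rose and 0 fell, with a median of 1.23. Lcn2, which encodes the iron-siderophore binding protein lipocalin 2 (chromosome 2, 32240199 to 32240258), lay from -0.46 to 2.18 (median 0.45) in the vehicle mice and from 5.87 to 8.68 (median 7.67) in the treated mice. The difference of 6.79 ± 0.67, adjusted p 2.03e-07, was 110-fold, and lack of overlap was a condition for naming it among the largest changes. Mt2 and Mt1, which encode metal-binding metallothioneins, rose by 5.17 ± 0.72, adjusted p 9.43e-06, and by 3.83 ± 0.60, adjusted p 3.47e-05.

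Serum amyloid A proteins, apolipoproteins of the acute phase, rose too. Saa1 (chromosome 7, 53996070 to 53996129) lay from 4.14 to 6.98 (median 5.0) in the vehicle mice and from 9.55 to 9.99 (median 9.73) in the treated mice, a difference of 4.41 ± 0.50, adjusted p 8.93e-07. Saa2 lay from 5.02 to 7.99 (median 5.96) in the vehicle mice and from 9.94 to 10.47 (median 10.23) in the treated mice, a difference of 3.97 ± 0.50, adjusted p 3.00e-06. In both, all treated mice lay above all vehicle mice, which was again a condition of their selection. These genes, like the metallothioneins, have near-identical neighbours, and cross-hybridization between copies cannot be separated here. Steap4, a metalloreductase, rose by 3.02 ± 0.44, adjusted p 1.61e-05. The fibrinogen chain gene Fga lay from 5.85 to 6.14 (median 5.92) in the vehicle mice and from 7.26 to 7.95 (median 7.54) in the treated mice, a difference of 1.61 ± 0.20, adjusted p 2.57e-06. Negative acute phase proteins, which fall in many inflammatory states, did not mirror this: 2 of 15 rose and 1 fell, with a median of 0.098, -0.092 after quantile normalization. Leaving out vehicle replicate 6, 5 rose, and without treated replicate 2 or 4 or vehicle replicate 4, 5 or 6, 0 fell. Fetub, a fetuin, rose by 0.33 ± 0.083, adjusted p 0.00311, and F12, coagulation factor XII, by 0.18 ± 0.056, adjusted p 0.0148.

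**Figure D2:**
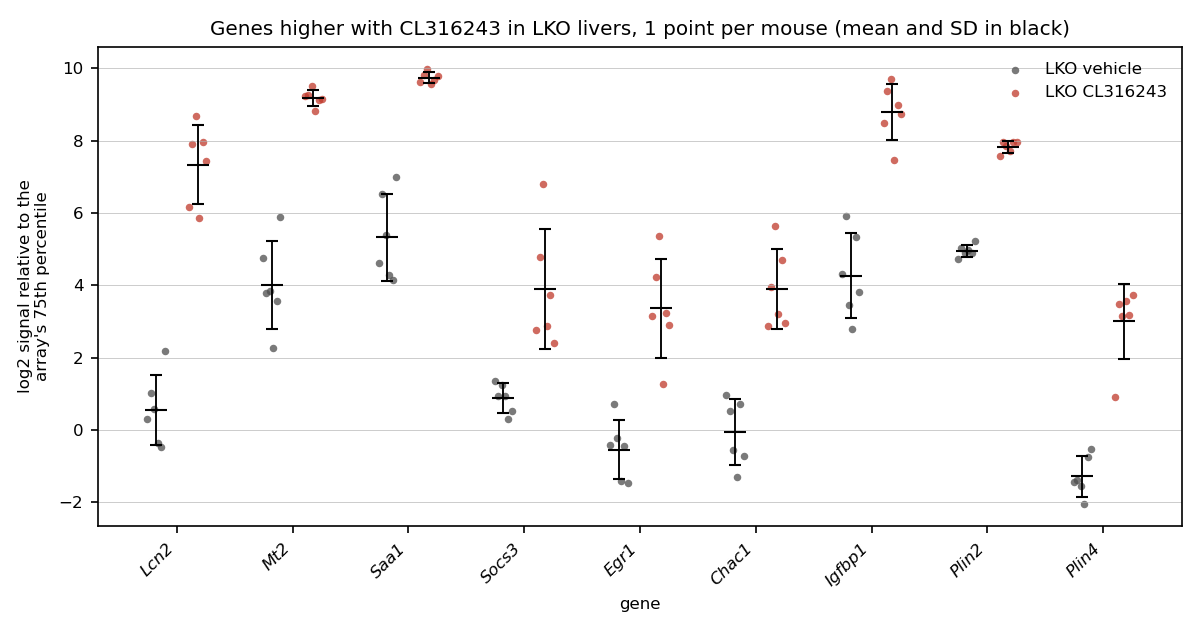
Log2 level (signal over the array's 75th percentile) for 9 genes in the 6 vehicle (grey) and 6 CL316243 (red) LKO mice; each point is 1 mouse, and black bars give the mean and SD. The treated mice lie above all vehicle mice in each gene, with Lcn2 between 5.87 and 8.68 against -0.46 to 2.18.

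To show what letters lie at the start sites of acute phase and IL-6 genes, RefSeq promoter windows of all list members, called or not, of 250 bases before to 50 after the transcription start (build GRCm38.p6) were searched on both strands for TTCNNNGAA, the core that STAT factors bind. It was found in 7 of 24 acute phase genes with a window (29.2%, Agt, Apcs, Fga, Fgb, Hamp, Itih4 and Steap4), in 1 of 21 genes of the IL-6 and STAT3 list (4.76%), and in 8.3% of all 32851 windows. Among the genes that rose, 6 of 22 and 1 of 10 held it. The windows of Fga and Socs3, 1 called gene of each list, are shown 5′ to 3′ with the match in capitals. A match describes the letters and is no evidence of binding.
Fga (chr3:83025903-83026202, plus strand): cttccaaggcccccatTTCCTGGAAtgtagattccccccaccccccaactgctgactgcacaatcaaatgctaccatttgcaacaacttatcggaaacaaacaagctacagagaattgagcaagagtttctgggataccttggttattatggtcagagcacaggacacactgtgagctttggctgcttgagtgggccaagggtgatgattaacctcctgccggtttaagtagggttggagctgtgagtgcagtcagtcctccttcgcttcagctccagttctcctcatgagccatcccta
Socs3 (chr11:117969317-117969616, minus strand): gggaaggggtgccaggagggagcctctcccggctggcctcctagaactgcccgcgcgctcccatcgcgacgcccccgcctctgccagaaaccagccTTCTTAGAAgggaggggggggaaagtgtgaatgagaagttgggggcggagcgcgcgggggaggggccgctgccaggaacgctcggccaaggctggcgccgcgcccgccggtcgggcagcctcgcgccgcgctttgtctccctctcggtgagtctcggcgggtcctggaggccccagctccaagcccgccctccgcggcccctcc

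Genes of the signalling pathways that are known to drive acute phase genes were read next. In the IL-6 and JAK-STAT3 list, 12 of 24 rose and 2 fell (median 0.57), or 11 rose and 2 fell, with a median of 0.47, without treated replicate 3. With vehicle replicate 2 left out, 4 fell. Socs3, which encodes a feedback inhibitor of this pathway, lay from 0.31 to 1.35 (median 0.95) in the vehicle mice and from 2.41 to 6.8 (median 3.3) in the treated mice, a difference of 3.01 ± 0.66, adjusted p 0.00101. The highest Socs3 level was that of treated replicate 3, and the groups did not overlap. Stat3, the transcription factor of the pathway, rose by 1.73 ± 0.21, adjusted p 1.94e-06, and Osmr, the oncostatin M receptor, by 2.0 ± 0.28, adjusted p 8.92e-06. Il6ra, the IL-6 receptor chain, was not called (0.31 ± 0.25, adjusted p 0.334), and its levels overlapped, from 4.39 to 5.11 (median 4.91) in the vehicle mice and from 4.38 to 5.59 (median 5.22) in the treated mice.

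In the list of NF-κB, IL-1 and TNF signalling, 25 of 39 rose and 2 fell (median 0.57, with 0.81, 0.74 and 0.57 within slides 1, 2 and 3). Without treated replicate 3, 22 rose and 2 fell, with a median of 0.58. Il1r1, the signalling IL-1 receptor, lay from 0.82 to 2.37 (median 1.79) in the vehicle mice and from 3.72 to 5.53 (median 4.92) in the treated mice, a difference of 3.08 ± 0.45, adjusted p 1.75e-05. Cxcl1, a neutrophil chemokine, rose by 3.18 ± 0.75, adjusted p 0.00189, and Il1rn, which encodes the IL-1 receptor antagonist, by 2.03 ± 0.61, adjusted p 0.0104. Of the chemokine and adhesion list, 7 of 22 rose and 3 fell (median 0.24, with -0.022, 0.28 and 0.16 within slides 1, 2 and 3, and 0.15 without treated replicate 3), with Cxcl14 (2.75 ± 0.43, adjusted p 3.77e-05) and Ccl6 (1.81 ± 0.34, adjusted p 2.17e-04) among the increases. Among complement genes, 10 of 31 rose and 1 fell, none by 2-fold, with the inhibitor Cd59a (-0.57 ± 0.10, adjusted p 1.66e-04) and C4b (0.40 ± 0.083, adjusted p 6.67e-04) among them. In the absence of treated replicate 2 or vehicle replicate 4 or 6, 2 fell.

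Markers of immune cells were measured beside these lists. Of 9 neutrophil and monocyte markers tested, 5 rose and 0 fell, and their summed level was 88.8 to 104 in vehicle and 107 to 174 in treated mice. The receptor gene Csf3r, which changed by 0.26 ± 0.059, made up 68.5% to 92.6% of that sum, and the other 8 markers summed to 6.59 to 9.69 in vehicle and 10.8 to 54.6 in treated mice. The largest increases were in Retnlg (3.48 ± 0.74, adjusted p 7.28e-04), S100a8 (2.3 ± 0.58, adjusted p 0.00291) and S100a9 (2.25 ± 0.55, adjusted p 0.00229), while Ly6g, a neutrophil surface marker, was at -0.97 in vehicle and -1.24 in treated mice and was not called. Of 10 Kupffer cell and macrophage markers, 0 rose and 0 fell by limma, with summed levels of 85.3 to 146 in vehicle and 76 to 134 in treated mice. In T and NK cells 1 of 9 rose and 2 fell (sums 24.3 to 32.2 in vehicle and 18.8 to 27.9 in treated mice). Cd4, which fell, made up 82.6% to 91.6% of that sum. Without Cd4 the sum was 2.47 to 3.58 in vehicle and 2.41 to 3.6 in treated mice. In B cells 0 of 6 rose and 2 fell (sums 1.25 to 2.02 in vehicle and 1.09 to 1.8 in treated mice). The part of these cells in the inflammatory lists was not tested.

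Interferon-response genes, which limit virus replication, included increases and no decrease. Of 33, 20 rose and 0 fell by limma (median 0.59, with 0.42, 0.86 and 0.56 within slides 1, 2 and 3), and 20 rose and 0 fell, with a median of 0.60, without treated replicate 3. Without treated replicate 6, 1 fell. Mx2, a dynamin-like antiviral GTPase, lay from -0.18 to 0.50 (median 0.11) in the vehicle mice and from 1.22 to 1.86 (median 1.57) in the treated mice, a difference of 1.44 ± 0.12, adjusted p 3.56e-08. Usp18, which removes ISG15 from proteins, lay from 0.29 to 0.75 (median 0.41) in the vehicle mice and from 1.35 to 3.43 (median 2.46) in the treated mice, a difference of 1.95 ± 0.24, adjusted p 2.96e-06. Rsad2, encoding viperin, rose by 1.8 ± 0.22, adjusted p 2.83e-06. In LWT livers the list's median was 0.042. In the test of the difference between genotypes, higher in LKO means an LKO effect above the LWT effect, whether or not the gene rose. The test called 2.17% of all genes higher and 3.24% lower. Of the 33 genes, 7 were called higher in LKO (Ifi44, Irgm1, Isg15, Mx2, Stat2, Usp18 and Xaf1) and 0 lower. Mx2 differed by 1.4 ± 0.18, adjusted p 1.97e-05, and Usp18 by 1.64 ± 0.35, adjusted p 0.00545, while Rsad2 (0.96 ± 0.32, adjusted p 0.0839) did not pass. Among antigen processing genes, 4 of 26 rose and 4 fell (median -0.058, with -0.10, 0.038 and -0.076 within slides 1, 2 and 3). Leaving out treated replicate 2 or vehicle replicate 4 or 5, 2 rose. Nlrc5, which drives MHC class I genes, rose (1.28 ± 0.15, adjusted p 1.17e-06), and the immunoproteasome subunit Psmb9 (-1.02 ± 0.19, adjusted p 1.58e-04) and Ciita, which drives MHC class II genes (-0.78 ± 0.17, adjusted p 0.00103), fell.

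The core of the interferon-stimulated response element, TTTC, any 2 bases and TTTC again on either strand, was present in 13 of 23 promoter windows of the interferon list (56.5%), against 3.44% of all windows, and in 7 of the 14 that rose and have a window. The Rsad2 window is shown as an example, with the match in capitals.
Rsad2 (chr12:26456403-26456702, minus strand): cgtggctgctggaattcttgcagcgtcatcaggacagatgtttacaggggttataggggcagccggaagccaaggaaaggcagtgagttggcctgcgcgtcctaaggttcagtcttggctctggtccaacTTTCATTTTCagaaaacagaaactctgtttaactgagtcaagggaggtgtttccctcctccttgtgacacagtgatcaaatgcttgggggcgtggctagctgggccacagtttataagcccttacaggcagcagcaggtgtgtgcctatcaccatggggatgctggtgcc

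Immediate early genes, transcription factors and phosphatases that answer signals within minutes to hours, included many increases. Of 22, 16 rose and 0 fell, 15 of them by at least 2-fold, and the median difference was 1.9 (2.49, 1.38 and 1.46 within slides 1, 2 and 3). Without treated replicate 3, 16 rose and 0 fell, with a median of 1.47. Egr1, a zinc finger transcription factor, lay from -1.45 to 0.71 (median -0.43) in the vehicle mice and from 1.28 to 5.36 (median 3.19) in the treated mice, a difference of 3.9 ± 0.56, adjusted p 1.45e-05. Fos lay from -3.72 to -2.42 (median -2.85) in the vehicle mice and from -1.15 to 1.37 (median 0.094) in the treated mice, a difference of 3.1 ± 0.54, adjusted p 1.04e-04. Klf6 rose by 2.88 ± 0.31, adjusted p 6.00e-07. Neither Egr1, Fos nor Klf6 overlapped between the groups, which was so for 4445 of all 21331 genes tested. The cAMP response element TGACGTCA was found in 2 of 18 promoter windows of this list, against 1.79% of all windows.

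Genes of gluconeogenesis and cAMP signalling were split: 9 of 26 rose and 4 fell (median 0.18). Igfbp1, an insulin-repressed binding protein of IGF1 (chromosome 11, 7102442 to 7102501), lay from 2.8 to 5.92 (median 4.05) in the vehicle mice and from 7.47 to 9.71 (median 8.87) in the treated mice, a difference of 4.53 ± 0.67, adjusted p 1.85e-05. Nr4a1, an orphan receptor, rose by 2.57 ± 0.34, adjusted p 4.76e-06. Ppp1r3c, a glycogen-targeting phosphatase subunit, lay from 1.66 to 2.5 (median 2.23) in the vehicle mice and from -4.36 to -0.035 (median -0.67) in the treated mice, a difference of -3.57 ± 0.60, adjusted p 7.03e-05, or -2.97 without treated replicate 3. Among adrenergic receptors and cAMP machinery, 6 of 29 rose and 9 fell (median 0.012, with -0.16, -0.069 and 0.053 within slides 1, 2 and 3, -0.0076 after quantile normalization, and -0.0038 without treated replicate 3). Crem, a cAMP-responsive transcription factor, rose by 2.32 ± 0.26, adjusted p 8.93e-07, and the kinase-anchoring protein gene Akap12 by 1.89 ± 0.43, adjusted p 0.00121. Adrb3, the receptor that CL316243 activates, was well above background in all 12 livers and lay from 0.76 to 1.63 (median 1.41) in the vehicle mice and from -1.05 to -0.048 (median -0.61) in the treated mice. It fell in liver by 1.92 ± 0.31, adjusted p 4.64e-05, with no overlap between groups.

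The ATF4 integrated stress response, which raises amino acid synthesis and tRNA charging genes when translation is restrained, was among the lists with most increases. Of 36 genes, 28 rose and 1, Shmt2, fell (median 0.82, with 1.16, 0.58 and 0.76 within slides 1, 2 and 3), and without treated replicate 3, 27 rose and 1 fell, with a median of 0.70. Chac1, a glutathione-degrading enzyme (chromosome 2, 119179990 to 119180049), lay from -1.3 to 0.98 (median -0.0012) in the vehicle mice and from 2.86 to 5.64 (median 3.58) in the treated mice, a difference of 3.94 ± 0.60, adjusted p 2.50e-05. Psat1, of serine synthesis, rose by 3.73 ± 0.64, adjusted p 8.93e-05 (a dimmer probe gave 1.06). Nupr1, a stress-induced chromatin protein, rose by 3.48 ± 0.52, adjusted p 1.97e-05, but its dimmer probe gave -0.090. Gdf15, a stress hormone, lay from 1.12 to 2.07 (median 1.53) in the vehicle mice and from 3.26 to 5.67 (median 4.77) in the treated mice, a difference of 3.12 ± 0.34, adjusted p 5.93e-07.

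Fgf21, a fasting hormone of the liver that both PPARα and ATF4 are known to induce (chromosome 7, 52869305 to 52869364), was well above background on 0 of 6 vehicle arrays and on 6 of 6 treated arrays, so its change is a bound. It was at least 29.6-fold higher (adjusted p 3.11e-08), with levels from -7.65 to -5.76 (median -6.42) in the vehicle mice and from -1.9 to 2.13 (median 0.0046) in the treated mice. For the bound, each vehicle array was counted at its dimmest signal well above background, or at the gene's own signal where that was higher. The letters TGATGNAAT, the composite site that ATF4 binds with C/EBP partners, were found in 5 of 32 windows of the list (15.6%, Aars, Fgf21, Gars, Iars and Nupr1) and in 0.965% of all windows. The Fgf21 window is shown with the match in capitals.
Fgf21 (chr7:45615441-45615740, minus strand): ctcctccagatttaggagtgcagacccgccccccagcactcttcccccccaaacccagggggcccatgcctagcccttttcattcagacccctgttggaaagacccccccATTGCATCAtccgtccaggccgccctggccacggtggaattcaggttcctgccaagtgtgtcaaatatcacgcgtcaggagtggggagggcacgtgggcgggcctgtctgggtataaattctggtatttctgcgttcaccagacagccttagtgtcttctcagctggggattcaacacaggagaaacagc

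Related stress lists moved less. Among endoplasmic reticulum chaperones and unfolded protein response genes, 13 of 39 rose and 1 fell (median 0.17). With treated replicate 1 or 4 left out, 2 fell. Syvn1, a ubiquitin ligase of protein disposal, rose by 1.09 ± 0.27, adjusted p 0.00237, and the co-chaperone Dnajb9 (0.91, adjusted p 0.00257) and Herpud1 (0.90, adjusted p 1.08e-04) rose too. Of the heat shock list, 5 of 23 rose and 4 fell (median 0.078, with -0.079, 0.044 and 0.10 within slides 1, 2 and 3). Hspa1a, an inducible HSP70, rose by 1.47 ± 0.44, adjusted p 0.0109, and Hspb8 by 0.94 ± 0.26, adjusted p 0.00613, while the cold-inducible RNA-binding protein gene Cirbp changed by -1.08 ± 0.28, adjusted p 0.00385. For Hspa1a the level of treated replicate 3 (-1.63) lay among the vehicle values. In the NRF2 antioxidant list 8 of 28 rose and 6 fell (median 0.024, with -0.020, -0.00015 and 0.0038 within slides 1, 2 and 3, -0.097 after quantile normalization, and -6.5e-05 without treated replicate 3), led by the heme oxygenase gene Hmox1 (2.46 ± 0.38, adjusted p 3.04e-05). Autophagy and lysosome genes rose in 19 of 37 and fell in 4 (median 0.20). Sqstm1, the autophagy receptor p62, lay from 5.82 to 6.18 (median 5.97) in the vehicle mice and from 6.77 to 7.83 (median 7.02) in the treated mice, a difference of 1.19 ± 0.13, adjusted p 5.93e-07. Atg14 (1.14 ± 0.13, adjusted p 1.15e-06), of the lipid kinase that starts autophagosomes, and the protease gene Ctsl (1.13 ± 0.17, adjusted p 1.79e-05) rose. Atg14 rose more in LKO than in LWT (difference 0.88 ± 0.19, adjusted p 0.00569).

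Increases prevailed among growth arrest genes, and decreases among replication genes. In the list of p53 targets and growth arrest genes, 14 of 22 rose and 4 fell (median 0.40). Cdkn1a, the cyclin-dependent kinase inhibitor p21, lay from -1.69 to 1.55 (median 0.052) in the vehicle mice and from 1.57 to 4.74 (median 3.35) in the treated mice, a difference of 3.31 ± 0.68, adjusted p 5.45e-04. Gadd45b rose by 2.79 ± 0.39, adjusted p 1.11e-05, and the antiproliferative gene Btg2 by 2.78 ± 0.63, adjusted p 0.00138. Trp53inp1, a p53-induced nuclear protein (chromosome 4, 11101174 to 11101233), lay from 1.52 to 2.56 (median 1.91) in the vehicle mice and from 3.47 to 4.59 (median 4.38) in the treated mice, a difference of 2.25 ± 0.27, adjusted p 1.94e-06, and the LKO effect exceeded the LWT effect by 2.79 ± 0.39, adjusted p 5.91e-05. In the cell cycle list, 2 of 32 rose and 9 fell (median -0.17). In the absence of treated replicate 3 or 5 or vehicle replicate 2 or 4, 1 rose. Tk1, thymidine kinase, lay from 2.51 to 3.55 (median 3.43) in the vehicle mice and from 0.59 to 1.1 (median 0.91) in the treated mice, a difference of -2.41 ± 0.20, adjusted p 3.01e-08. Birc5, survivin, changed by -1.35 ± 0.20, adjusted p 2.43e-05, and Ccnd1, cyclin D1, by -1.39 ± 0.33, adjusted p 0.00176. Of cytosolic ribosomal protein genes, 4 of 55 rose and 0 fell. Without treated replicate 1, 2 or 3 or vehicle replicate 2, 3, 4 or 5, 1 rose, and without treated replicate 5, 2 rose. Rpl18 rose by 0.20 ± 0.063, adjusted p 0.0139. Of ribosome biogenesis genes, 6 of 43 rose and 7 fell (median 0.033, with 0.18, 0.010 and -0.044 within slides 1, 2 and 3, and -0.054 without treated replicate 3), with Rcl1 (1.03 ± 0.18, adjusted p 8.77e-05) up and the pseudouridine synthase gene Dkc1 (-0.83 ± 0.12, adjusted p 9.91e-06) down. Leaving out vehicle replicate 5, 3 rose. In the proteasome list 3 of 31 rose and 3 fell, with small changes in Psmd8 (0.31 ± 0.076, adjusted p 0.0023) and Psma6 (-0.22 ± 0.050, adjusted p 0.00138). With treated replicate 6 left out, 5 rose, and without vehicle replicate 6, 6 rose. Psmc4 was called (0.19 ± 0.057, adjusted p 0.0117), but its probes disagree, and their mean changed by -0.081.

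Lipid droplet genes were among those that changed without hepatocyte PPARα. In the list of droplet coat and lipolysis genes, 9 of 24 rose and 3 fell (median 0.20). Plin2, the main hepatocyte droplet coat protein (chromosome 4, 86302847 to 86302906), lay from 4.73 to 5.22 (median 4.93) in the vehicle mice and from 7.57 to 7.97 (median 7.9) in the treated mice, a difference of 2.88 ± 0.23, adjusted p 1.81e-08. All treated mice lay above all vehicle mice. Plin4, another perilipin, lay from -2.05 to -0.52 (median -1.41) in the vehicle mice and from 0.92 to 3.74 (median 3.33) in the treated mice, a difference of 4.29 ± 0.47, adjusted p 5.93e-07, and treated replicate 1 was the lowest of its group. Cidec, which fuses droplets, lay from -2.07 to -1.31 (median -1.52) in the vehicle mice and from 0.74 to 3.25 (median 2.31) in the treated mice, a difference of 3.86 ± 0.35, adjusted p 6.02e-08. It rose by 7.14 ± 0.35 in LWT, and the effects differed by -3.28 ± 0.49, adjusted p 1.54e-04. The Plin2 effects (-0.74 ± 0.33, adjusted p 0.224) and Plin4 effects (1.21 ± 0.66, adjusted p 0.352) were not called different between the genotypes. Adipocyte markers were low, and Adipoq, adiponectin, did not pass the filter on signal. Of the 7 tested, 2 rose (Cidea and Plin4) and 1 fell (Adrb3). Their summed level was 2.7 to 4.64 in vehicle and 3.66 to 15.3 in treated mice. Plin4 itself made up 7.05% to 89.3% of that sum over the LKO arrays. Without Plin4 the sum was 2.36 to 4.04 in vehicle and 1.32 to 1.9 in treated mice.

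Of triglyceride and phospholipid synthesis genes, 3 of 20 rose and 3 fell (median -0.071). In the absence of treated replicate 6, 5 fell. Gpat3, a glycerol-phosphate acyltransferase, lay from -3.33 to -2.12 (median -2.85) in the vehicle mice and from -0.16 to 2.91 (median 0.85) in the treated mice, a difference of 3.74 ± 0.40, adjusted p 5.13e-07. Chka, choline kinase, rose by 1.67 ± 0.32, adjusted p 2.97e-04, and Gpam, the mitochondrial acyltransferase, changed by -1.07 ± 0.34, adjusted p 0.0149. Mfsd2a, which carries lysophosphatidylcholine and is a known PPARα target, lay from -4.85 to -2.19 (median -2.83) in the vehicle mice and from -1.17 to 2.89 (median 0.55) in the treated mice, a difference of 3.75 ± 0.60, adjusted p 4.62e-05. In the list of fatty acid uptake, binding and activation, 3 of 23 rose and 6 fell (median -0.15). The fatty acid binding protein Fabp4 rose by 1.62 ± 0.35, adjusted p 8.11e-04, while the medium-chain synthetase Acsm5 (-1.47 ± 0.16, adjusted p 7.39e-07) and the long-chain synthetase Acsl1 (-0.76 ± 0.20, adjusted p 0.00453) fell.

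Known PPARα target genes were split in LKO livers. Of 46, 16 rose and 5 fell, the median was 0.070 (0.039, 0.32 and 0.20 within slides 1, 2 and 3) against 1.39 in LWT, and without treated replicate 3, 17 rose and 5 fell, with a median of 0.21. Without treated replicate 4, 8 fell. The test of the difference between genotypes called 35 of the 46 lower in LKO and 0 higher, where 3.24% of all genes were called lower. Ehhadh, the peroxisomal bifunctional enzyme (chromosome 16, 21761914 to 21761973), lay from 3.58 to 4.18 (median 3.9) in the vehicle mice and from 2.83 to 3.42 (median 3.06) in the treated mice. It fell in LKO (-0.80 ± 0.14, adjusted p 8.42e-05) and rose by 3.98 ± 0.14 in LWT, a difference between effects of -4.77 ± 0.19, adjusted p 2.30e-13. Pdk4, which restrains pyruvate oxidation (chromosome 6, 5433441 to 5433500), lay from 1.02 to 1.99 (median 1.62) in the vehicle mice and from 2.3 to 5.14 (median 3.59) in the treated mice. It rose in LKO (2.04 ± 0.44, adjusted p 8.48e-04), against 6.77 ± 0.44 in LWT, a difference between effects of -4.73 ± 0.62, adjusted p 3.38e-05. Angptl4, an inhibitor of lipoprotein lipase, rose (1.2 ± 0.28, adjusted p 0.00187), with treated replicate 3 lowest of its group at 5.11 and within the vehicle range, and its effects were not called different (-0.97 ± 0.40, adjusted p 0.186).

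Other members of the list followed either course. Cyp4a14, a fatty acid omega-hydroxylase, was well above background on 1 of 6 vehicle arrays and 5 of 6 treated arrays. Its measured means differed by 1.61 ± 0.45, adjusted p 0.00662, in LKO, a size that takes vehicle signals near background as read, and by 1.21, adjusted p 0.00733, with signals below the floor of their array (its dimmest signal well above background) raised to it. Its LKO effect was smaller than its LWT effect, by a difference of -5.38, adjusted p 1.87e-07, on the floored signals and of -5.4 ± 0.64, adjusted p 1.02e-05, as read. Acot2, a mitochondrial acyl-CoA thioesterase, rose by 1.73 ± 0.24, adjusted p 7.84e-06, and its relative Acot3 fell by 1.5 ± 0.44, adjusted p 0.00939. Acot5 was not called (-0.19 ± 0.30, adjusted p 0.642) and its probes disagree, with 0.49 (not called) as the mean over probes. Between the genotypes Acot2 differed by -5.24 ± 0.33, adjusted p 1.82e-09, Acot3 by -5.36 ± 0.63, adjusted p 8.61e-06, and Acot5 by -5.43 ± 0.43, adjusted p 2.52e-08. These thioesterases are close copies of each other, and their probes may share signal. The perfect direct repeat of AGGTCA with 1 base between its copies, the form PPARs bind best, was found in 0 of 34 promoter windows of the list and in 0.0396% of all windows, and a lack of these letters says nothing of the receptor's binding.

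**Figure D3:**
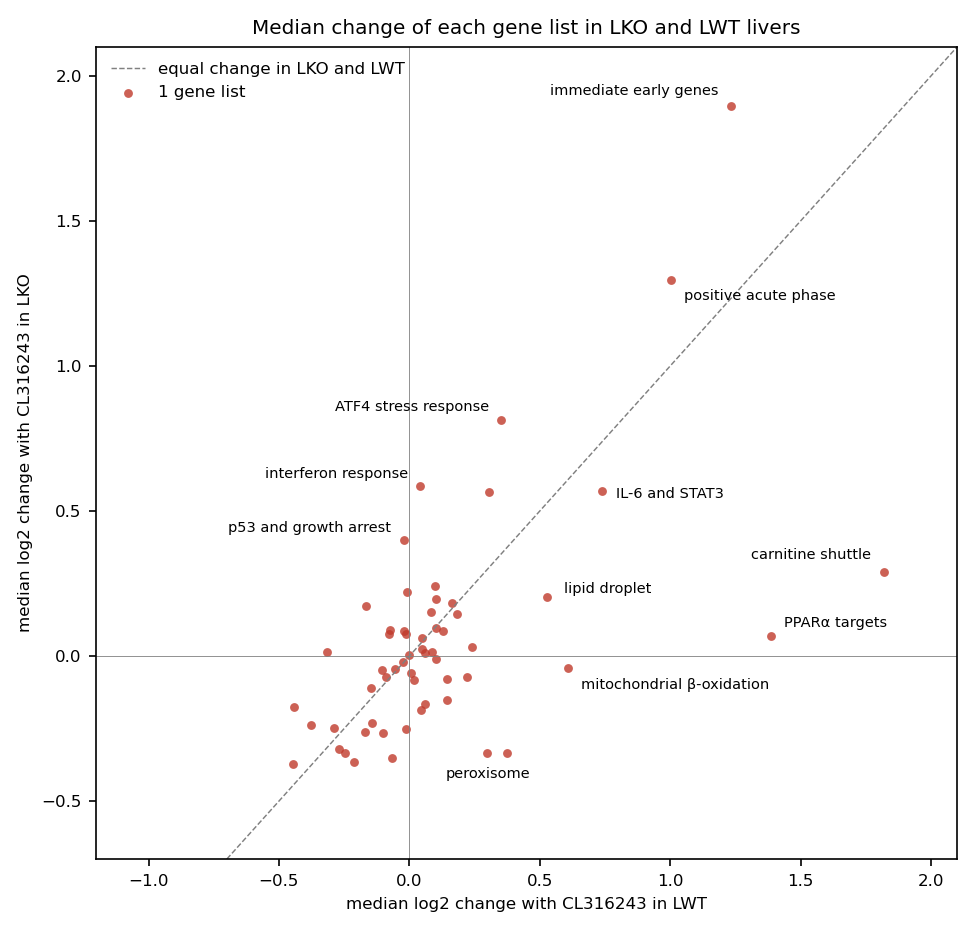
Median log2 difference with CL316243 of each gene list in LWT (horizontal) and LKO (vertical) livers; each point is 1 list, and the dashed line marks equal medians. PPARα targets lie at 1.39 in LWT and 0.070 in LKO, and interferon-response genes at 0.042 and 0.59.

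The pathways that PPARα is known for gave these counts. In mitochondrial beta-oxidation, 2 of 18 rose and 5 fell (median -0.041, 0.61 in LWT), and 14 of 18 were called lower in LKO by the test between genotypes. Eci2, an enoyl-CoA isomerase, rose (0.60 ± 0.096, adjusted p 4.87e-05), while Echs1, enoyl-CoA hydratase (-0.64 ± 0.11, adjusted p 5.45e-05), and Hadh, hydroxyacyl-CoA dehydrogenase (-0.57 ± 0.11, adjusted p 3.39e-04), fell. The genotype effects differed for Eci2 (-0.68 ± 0.14, adjusted p 0.00342) and for Hadh (-0.69 ± 0.16, adjusted p 0.0101), and not for Echs1 (-0.35 ± 0.15, adjusted p 0.194). In the carnitine shuttle, 3 of 9 rose and 1 fell (median 0.29, 0.45 without treated replicate 3, 1.82 in LWT). The test between genotypes called 7 of the 9 lower in LKO. Leaving out treated replicate 3, 5 rose. Cpt1a, which passes fatty acids into mitochondria in liver, lay from 4.38 to 4.95 (median 4.67) in the vehicle mice and from 5.1 to 5.78 (median 5.6) in the treated mice, a difference of 0.83 ± 0.15, adjusted p 1.73e-04, with no called difference from LWT (-0.32 ± 0.21, adjusted p 0.473). Slc22a5, the carnitine importer, rose by 2.3 ± 0.28, adjusted p 1.75e-06. The muscle-type Cpt1b rose by 0.70 ± 0.20, adjusted p 0.00733, against 3.13 ± 0.20 in LWT, a difference of -2.43 ± 0.28, adjusted p 7.20e-06.

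Decreases prevailed among peroxisomal genes. Of 27, 2 rose and 16 fell (median -0.33, with -0.29, -0.29 and -0.31 within slides 1, 2 and 3), and without treated replicate 3, 3 rose and 16 fell, with a median of -0.28. The LWT median was 0.30, and the test between genotypes called 13 of the 27 lower in LKO. Pex10, a peroxisome import ligase, changed by -1.09 ± 0.19, adjusted p 1.00e-04. Of the ketogenesis and ketone list, 2 of 9 rose and 5 fell (median -0.33, 0.37 in LWT), and 3 of 9 were called lower in LKO by that test. Bdh2 fell (-0.83 ± 0.12, adjusted p 1.05e-05), while the monocarboxylate carriers Slc16a6 (2.01 ± 0.24, adjusted p 1.75e-06) and Slc16a1 (0.72 ± 0.21, adjusted p 0.00755) rose. Slc16a1 rose less than in LWT, by a difference of -1.42 ± 0.29, adjusted p 0.00439.

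**Figure D4:**
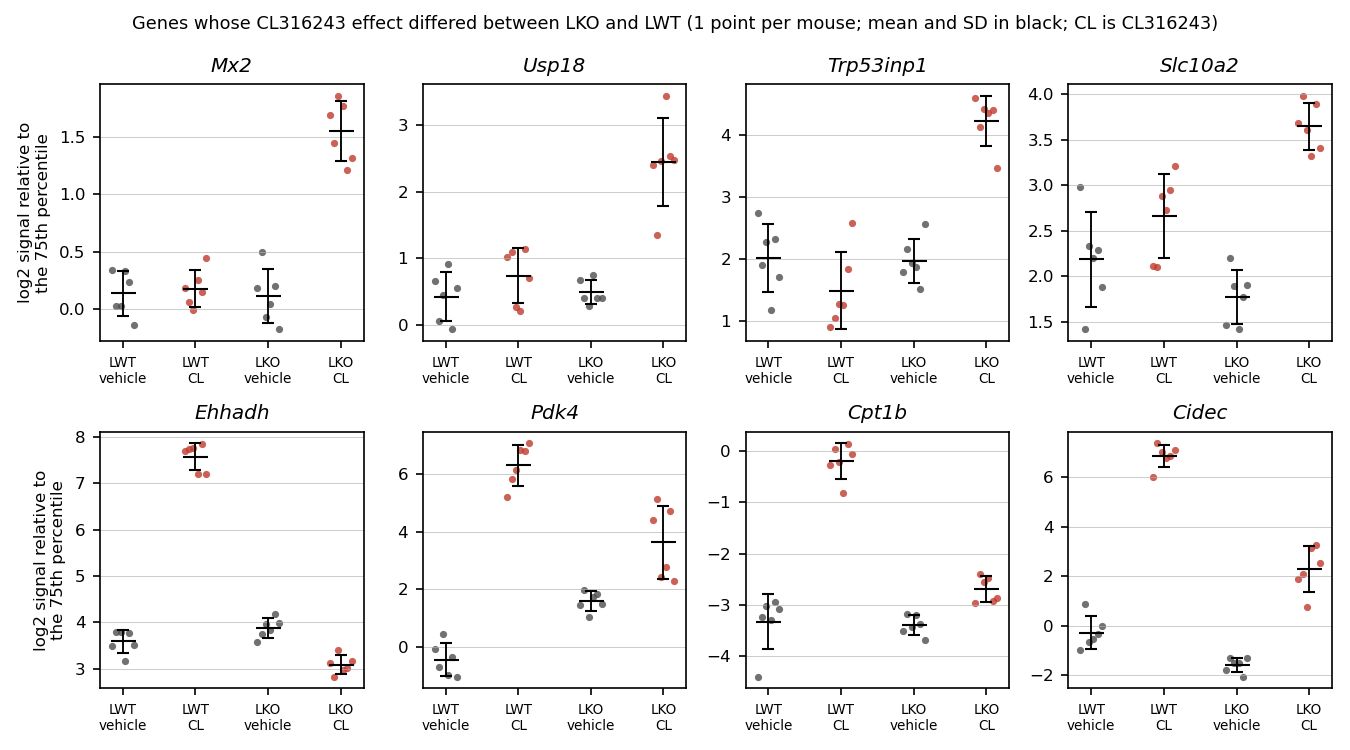
Log2 level (signal over the array's 75th percentile) in all 4 groups for 8 genes whose CL316243 effect differed between the genotypes; each point is 1 mouse, and black bars give the mean and SD. Mx2, Usp18, Trp53inp1 and Slc10a2 are highest in treated LKO mice, whereas Ehhadh, Pdk4, Cpt1b and Cidec are highest in treated LWT mice.

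Lipogenic genes included a strong decrease of their main regulator. In fatty acid synthesis and its regulators, 1 of 16 rose and 6 fell (median -0.25), and without treated replicate 3, 1 rose and 4 fell, with a median of -0.16. With treated replicate 1 or vehicle replicate 4 or 6 left out, 0 rose, and without vehicle replicate 2, 2 rose. Srebf1, the insulin-driven regulator of the pathway (chromosome 11, 60013214 to 60013273), lay from 6.34 to 7.08 (median 6.64) in the vehicle mice and from 2.61 to 4.18 (median 3.46) in the treated mice, a difference of -3.21 ± 0.26, adjusted p 1.57e-08. Scd2, a desaturase, fell (-1.22 ± 0.29, adjusted p 0.00171). Among elongases and desaturases, 1 of 12 rose and 3 fell, with Elovl5 (1.04 ± 0.14, adjusted p 6.31e-06) up and Fads1 (-0.39 ± 0.11, adjusted p 0.00626) down, and the mean of the Fads1 probes (-0.44) was not called. In the absence of treated replicate 3, 2 rose, and without vehicle replicate 2, 3 rose. In cholesterol synthesis and SREBP2 targets, 8 of 25 rose and 4 fell (median 0.016, with -0.15, 0.20 and 0.25 within slides 1, 2 and 3, -0.020 after quantile normalization, and 0.13 without treated replicate 3). Hmgcs1, which starts the pathway, lay from 3.65 to 4.63 (median 4.2) in the vehicle mice and from 3.52 to 5.89 (median 5.56) in the treated mice, a difference of 1.0 ± 0.30, adjusted p 0.0109, and the groups overlapped. Cyp51, lanosterol demethylase, rose by 0.93 ± 0.18, adjusted p 2.94e-04, and the retention factor Insig1 fell (-1.15 ± 0.30, adjusted p 0.00394). The test between genotypes called the LKO effect of 5 of the 25 higher (Cyp51, Ggps1, Msmo1, Sqle and Stard4) and of 0 lower, with Cyp51 at 1.1 ± 0.25, adjusted p 0.0107. Of these, Stard4 fell in LKO and Msmo1 was not called there.

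Bile acid genes fell more often than they rose: 6 of 28 rose and 12 fell (median -0.37, with -0.37, -0.24 and -0.16 within slides 1, 2 and 3), and without treated replicate 3, 4 rose and 11 fell, with a median of -0.23. Without vehicle replicate 4, 3 rose. Cyp7a1, the rate-limiting enzyme of bile acid synthesis (chromosome 4, 6193456 to 6193515), lay from 2.36 to 3.31 (median 2.97) in the vehicle mice and from -6.95 to -1.14 (median -5.22) in the treated mice, and was well above background on 6 of 6 vehicle arrays and 2 of 6 treated arrays. The measured means differed by -7.78 ± 0.78, adjusted p 2.43e-07, a size that takes treated signals near background as read. With each signal below the floor of its array (the dimmest signal well above background) raised to that floor, the difference was -6.96, adjusted p 5.25e-09, and a dimmer probe gave -3.42. Cyp8b1, which makes cholic acid, lay from 0.54 to 1.74 (median 1.12) in the vehicle mice and from -2.03 to -0.59 (median -1.18) in the treated mice, a difference of -2.36 ± 0.34, adjusted p 1.67e-05. Slc10a2, a bile acid importer, moved the other way, from 1.42 to 2.2 (median 1.83) in the vehicle mice and from 3.33 to 3.98 (median 3.65) in the treated mice, a difference of 1.87 ± 0.22, adjusted p 1.41e-06, larger than in LWT by 1.4 ± 0.31, adjusted p 0.0086. Abcg8, of the sterol exporter, fell (-1.29 ± 0.25, adjusted p 2.53e-04). In the lipoprotein list, 5 of 25 rose and 4 fell (median 0.088, -0.079 after quantile normalization). Leaving out treated replicate 2 or vehicle replicate 2, 3 rose. Apoa4 rose by 1.87 ± 0.26, adjusted p 1.14e-05, by less than in LWT (difference -1.52 ± 0.37, adjusted p 0.0174), and Apobec1, the apoB mRNA editing enzyme, rose by 0.57 ± 0.15, adjusted p 0.00492. Sort1 was called (-0.83 ± 0.18, adjusted p 8.03e-04) with probes that disagree, their mean being -0.32 and not called.

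**Figure D5:**
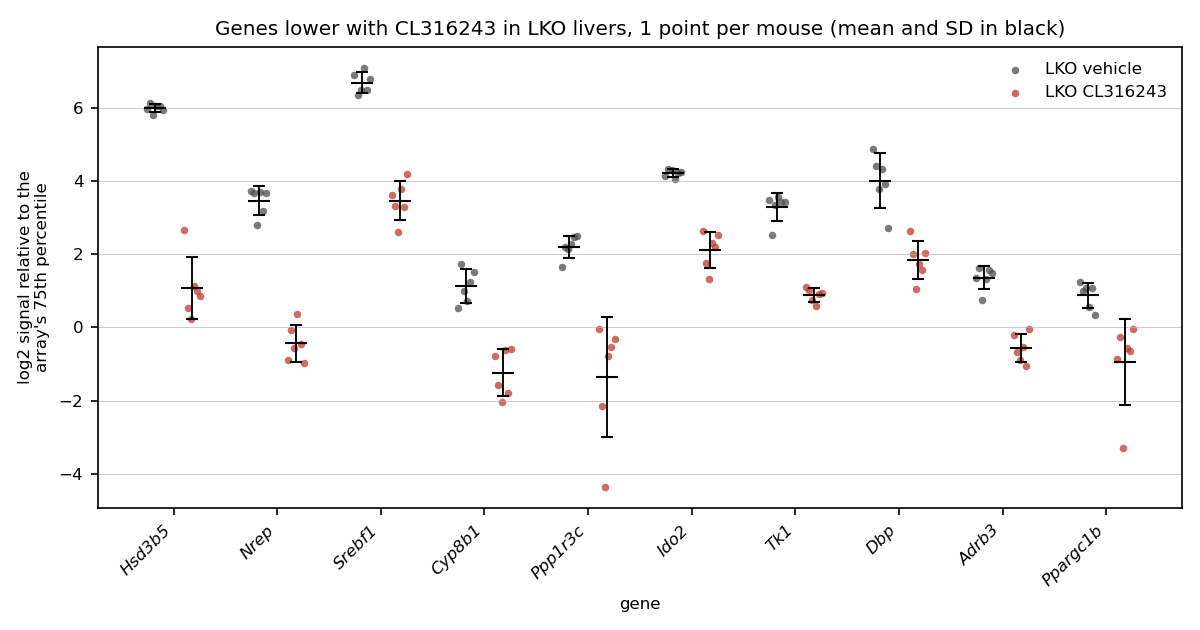
Log2 level (signal over the array's 75th percentile) for 10 genes in the 6 vehicle (grey) and 6 CL316243 (red) LKO mice; each point is 1 mouse, and black bars give the mean and SD. The treated mice lie below all vehicle mice in each gene, and treated replicate 3 is far below the rest for Ppargc1b, at -3.29.

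Glucose and insulin genes changed in both directions. In glycolysis and glycogen, 14 of 38 rose and 10 fell (median -0.0089, with 0.15, -0.025 and -0.011 within slides 1, 2 and 3). Ppp1r3g, a glycogen-targeting subunit induced by fasting, lay from -6.26 to -1.56 (median -2.82) in the vehicle mice and from -1.81 to 1.02 (median -0.23) in the treated mice, a difference of 3.03 ± 0.69, adjusted p 0.00139. Of insulin signalling and FoxO targets, 9 of 25 rose and 6 fell (median 0.076), with Irs2, an insulin receptor substrate (1.89 ± 0.53, adjusted p 0.00655), and the pseudokinase gene Trib1 (1.68 ± 0.19, adjusted p 7.85e-07) up. In the growth hormone and IGF1 axis 4 of 20 rose and 3 fell (median 0.088, with 0.19, 0.017 and -0.014 within slides 1, 2 and 3), and the cytokine-inducible inhibitor Cish rose by 2.04 ± 0.59, adjusted p 0.00838, with overlapping groups. Of secreted hepatokines, 7 of 19 rose and 5 fell (median 0.15, with -0.0047, 0.19 and 0.13 within slides 1, 2 and 3). With treated replicate 3 or vehicle replicate 3, 4 or 5 left out, 3 fell. Inhbb, the activin B subunit (chromosome 1, 121312160 to 121312219), lay from -3.81 to -3.1 (median -3.4) in the vehicle mice and from -0.61 to 3.46 (median 1.3) in the treated mice, a difference of 4.78 ± 0.50, adjusted p 4.08e-07.

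Decreases outnumbered increases among genes of drug and steroid metabolism. Among cytochrome P450 families 1 to 3 and their regulators, 6 of 36 rose and 17 fell (median -0.27), and without treated replicate 3, 6 rose and 16 fell, with a median of -0.24. In the absence of treated replicate 2 or 5 or vehicle replicate 4, 3 rose. Ahr, the dioxin receptor, rose by 1.28 ± 0.21, adjusted p 5.83e-05, and more than in LWT (difference 1.42 ± 0.30, adjusted p 0.00505). Of phase II conjugation enzymes, 3 of 41 rose and 20 fell (median -0.26). Nnmt, which methylates nicotinamide, rose by 1.61 ± 0.35, adjusted p 8.10e-04, while Ugt1a6a (-1.42 ± 0.27, adjusted p 2.17e-04) and Gsta2 (-1.15 ± 0.25, adjusted p 0.00103) fell. In the list of drug and organic ion transporters, 5 of 28 rose and 11 fell (median -0.24). Without vehicle replicate 4, 5 or 6, 3 rose. Slc22a30 (-1.42 ± 0.20, adjusted p 8.38e-06) and the nucleoside carrier Slc29a1 (-1.18 ± 0.20, adjusted p 6.36e-05) fell, and the aromatic amino acid carrier Slc16a10 rose (1.25 ± 0.29, adjusted p 0.00153).

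Hsd3b5, a male-specific steroid dehydrogenase (chromosome 3, 98422576 to 98422635), had the largest fall among genes without overlap between the groups and detected (well above background) in at least 4 mice of each group. Its levels lay from 5.79 to 6.14 (median 6.01) in the vehicle mice and from 0.22 to 2.65 (median 0.91) in the treated mice, a difference of -4.93 ± 0.42, adjusted p 3.11e-08. Among male-biased liver genes as a list, 1 of 23 rose and 4 fell (median -0.047), including Selenbp2 (-0.94 ± 0.19, adjusted p 3.92e-04) and the organic anion carrier Slco1a1 (-0.55 ± 0.13, adjusted p 0.00198). Leaving out treated replicate 4, 4 rose, and without vehicle replicate 6, 6 rose. Of female-biased genes, 3 of 19 rose and 7 fell (median -0.35). Many of these genes have close copies, whose probes may share signal.

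Amino acid catabolism was the list with the largest share of decreases. Of 36 genes, 3 rose and 23 fell (median -0.37, with -0.32, -0.30 and -0.47 within slides 1, 2 and 3), and without treated replicate 3, 1 rose and 22 fell, with a median of -0.33. With treated replicate 2 or 3 or vehicle replicate 2 left out, 1 rose. Ido2, a tryptophan-degrading dioxygenase (chromosome 8, 25642518 to 25642577), lay from 4.04 to 4.33 (median 4.24) in the vehicle mice and from 1.33 to 2.64 (median 2.25) in the treated mice, a difference of -2.09 ± 0.22, adjusted p 5.03e-07. Hal, histidase, fell (-1.2 ± 0.25, adjusted p 6.60e-04), and Sdsl, a serine dehydratase-like enzyme, rose (1.37 ± 0.34, adjusted p 0.00266). Of NAD synthesis genes, 2 of 16 rose and 9 fell (median -0.32). Nmrk1, nicotinamide riboside kinase, lay from 1.54 to 2.76 (median 2.23) in the vehicle mice and from -1.98 to 1.64 (median 0.33) in the treated mice, a difference of -2.0 ± 0.47, adjusted p 0.0018, and Afmid, of the tryptophan route, fell (-1.31 ± 0.15, adjusted p 1.24e-06). In methionine and one-carbon metabolism, 4 of 27 rose and 12 fell (median -0.23). Mthfd2, a mitochondrial folate enzyme and ATF4 target, rose by 2.42 ± 0.45, adjusted p 1.90e-04, and Amt, of glycine cleavage, fell (-1.03 ± 0.19, adjusted p 1.45e-04). In the urea cycle and transamination list 3 of 20 rose and 7 fell (median -0.19, with 0.011, -0.26 and -0.25 within slides 1, 2 and 3), with the glutamine carriers Slc38a2 (1.49 ± 0.39, adjusted p 0.00415) up and Slc38a3 (-0.59 ± 0.15, adjusted p 0.00364) down. In the absence of treated replicate 2, 1 rose.

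Most mitochondrial genes that changed did so by less than 2-fold, as did most called genes of any kind (1629 of 8596 reached 2-fold). In oxidative phosphorylation, 2 of 74 rose and 10 fell (median -0.020), with Cox7a2 (0.43 ± 0.083, adjusted p 3.19e-04) up and Ndufb10 (-0.36 ± 0.077, adjusted p 7.94e-04) and Sdhd (-0.34 ± 0.063, adjusted p 2.00e-04) down. Without treated replicate 2, 3 or 5 or vehicle replicate 1 or 4, 1 rose, and without treated replicate 5 or vehicle replicate 1 or 6, 6 fell. Of citric acid cycle genes, 5 of 25 rose and 11 fell (median -0.17). Fh1, fumarase, lay from 5.65 to 6.2 (median 5.87) in the vehicle mice and from 6.5 to 7.85 (median 6.94) in the treated mice, a difference of 1.15 ± 0.19, adjusted p 6.43e-05, while Aco1 (-0.63 ± 0.074, adjusted p 1.33e-06) and Idh2 (-0.51 ± 0.090, adjusted p 1.15e-04) fell. Mitochondrial carriers were split, as 9 of 27 rose and 10 fell (median -0.079, with 0.083, -0.055 and 0.044 within slides 1, 2 and 3). The liver carrier Slc25a47 (chromosome 12, 110094661 to 110094720) lay from 5.16 to 6.11 (median 5.77) in the vehicle mice and from 7.42 to 7.95 (median 7.64) in the treated mice, a difference of 2.03 ± 0.20, adjusted p 1.52e-07. Slc25a30 rose by 1.5 ± 0.20, adjusted p 7.42e-06, less than in LWT (-1.49 ± 0.29, adjusted p 0.00236), and Slc25a51, the NAD carrier, by 1.31 ± 0.40, adjusted p 0.011.

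Pericentral genes, which Wnt signals keep high around the central vein, included decreases and no increase: 9 of 21 fell and 0 rose by limma (median -0.25, with -0.34, -0.32 and -0.26 within slides 1, 2 and 3). Lgr5, a receptor of the Wnt pathway, changed by -2.19 ± 0.58, adjusted p 0.00473, and Rnf43, a Wnt feedback ligase, by -1.49 ± 0.37, adjusted p 0.00294. Of periportal genes, 1 of 16 rose and 4 fell (median -0.072, with 0.026, -0.12 and -0.21 within slides 1, 2 and 3), including Aldh1b1 (-1.38 ± 0.20, adjusted p 1.66e-05). Leaving out treated replicate 4 or vehicle replicate 6, 2 rose. In the circadian clock list 5 of 21 rose and 7 fell (median -0.11, with -0.18, 0.0047 and -0.071 within slides 1, 2 and 3, and -0.017 without treated replicate 3). Dbp, an output factor of the clock, lay from 2.71 to 4.88 (median 4.12) in the vehicle mice and from 1.06 to 2.64 (median 1.87) in the treated mice, a difference of -2.16 ± 0.37, adjusted p 8.16e-05. Per3 fell (-1.47 ± 0.33, adjusted p 0.00126), and Nfil3, a repressor that opposes Dbp, rose (1.69 ± 0.38, adjusted p 0.00111).

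Of nuclear receptors and coregulators, 6 of 36 rose and 15 fell (median -0.34), and without treated replicate 3, 6 rose and 13 fell, with a median of -0.27. Ppargc1b, a coactivator of lipid and mitochondrial genes, lay from 0.35 to 1.23 (median 1.03) in the vehicle mice and from -3.29 to -0.056 (median -0.60) in the treated mice, a difference of -1.83 ± 0.37, adjusted p 4.42e-04, or -1.36 (adjusted p 3.00e-05) without treated replicate 3. Its effects differed between genotypes by -2.13 ± 0.52, adjusted p 0.0163. Rxrg, a retinoid X receptor, fell (-1.56 ± 0.35, adjusted p 0.00109). In the thyroid hormone list 4 of 12 rose and 5 fell (median -0.084). Serpina7, thyroxine-binding globulin (chromosome X, 135615848 to 135616502), lay from -3.32 to -1.75 (median -1.96) in the vehicle mice and from 0.32 to 3.58 (median 3.3) in the treated mice, a difference of 5.12 ± 0.46, adjusted p 6.68e-08, with treated replicate 3 the lowest treated mouse. It rose by 1.97 ± 0.46 in LWT, a difference between effects of 3.16 ± 0.66, adjusted p 0.00471, the largest in the higher direction among genes with a gene symbol that were detected in at least 4 mice of each of the 4 groups.

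In coagulation and fibrinolysis 10 of 29 rose and 8 fell (median 0.0031, with 0.027, 0.071 and -0.00020 within slides 1, 2 and 3, and -0.11 after quantile normalization), and besides Fga the endothelial anticoagulant receptor gene Thbd rose (2.52 ± 0.46, adjusted p 1.78e-04). Of iron and metal handling genes, 12 of 29 rose and 4 fell (median 0.14), with the metallothioneins and Steap4 described above among them. In the extracellular matrix list 6 of 25 rose and 0 fell (median 0.22, with -0.050, 0.32 and 0.37 within slides 1, 2 and 3), including the growth factor gene Ccn2 (1.32 ± 0.36, adjusted p 0.005), Col4a1 (1.11 ± 0.21, adjusted p 2.32e-04) and the protease inhibitor gene Timp3 (0.68 ± 0.11, adjusted p 5.38e-05). Beside that list, 3 of 11 stellate cell markers rose and 0 fell, with a summed level of 52 to 74.7 in vehicle and 72 to 90.5 in treated mice. Of 7 cholangiocyte markers 2 rose (Sox9 by 2.18 ± 0.34, adjusted p 3.54e-05, and Spp1), and their sum was 4.26 to 7.42 in vehicle and 7.71 to 14.5 in treated mice. Of 10 endothelial markers 1 rose and 2 fell (sums 44 to 57.6 in vehicle and 45.7 to 59.7 in treated mice), and of 5 erythroid markers 1 fell (sums 173 to 413 in vehicle and 164 to 311 in treated mice). The part of these cells in the lists was not tested.

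Some of the largest changes lay outside the lists. Pip5k1a, a phosphoinositide kinase gene, had a probe (chromosome 3, 94901128 to 94901187) that lay from 0.70 to 3.74 (median 1.52) in the vehicle mice and from 7.07 to 9.18 (median 8.48) in the treated mice, a difference of 6.5 ± 0.74, adjusted p 9.05e-07. Another probe of the same gene gave -0.32, so the change cannot be assigned to the gene as a whole. Hcar2, a receptor for hydroxybutyrate and niacin, lay from -5.12 to -2.84 (median -4.22) in the vehicle mice and from -1.91 to 2.75 (median 0.15) in the treated mice, a difference of 4.25 ± 0.73, adjusted p 8.77e-05. Bmper, a regulator of bone morphogenetic proteins, rose by 3.97 ± 0.56, adjusted p 1.22e-05. Among decreases, Nrep lay from 2.79 to 3.74 (median 3.67) in the vehicle mice and from -0.97 to 0.37 (median -0.52) in the treated mice, a difference of -3.89 ± 0.31, adjusted p 1.81e-08. Slc13a2, a dicarboxylate carrier, fell by 2.84 ± 0.28, adjusted p 2.44e-07, and Keg1 by 2.67 ± 0.38, adjusted p 1.29e-05. The potassium channel gene Kcnk5 (-3.25 ± 0.58, adjusted p 1.34e-04), Fam13a (-3.05 ± 0.46, adjusted p 2.46e-05) and the noncoding Notumos (-2.86 ± 0.62, adjusted p 8.98e-04) were each lowest in treated replicate 3, and without it their differences were -2.53, -2.61 and -2.22, all called. Serpina9 (-3.24 ± 0.32, adjusted p 1.77e-07), the kinase genes Dclk3 (-3.21 ± 0.51, adjusted p 3.78e-05) and Ptk6 (-2.86 ± 0.38, adjusted p 5.44e-06) completed the named decreases.

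A few genes passed from below background to measured signal or the reverse. Besides Fgf21, Mybl1, a MYB-family transcription factor, was at least 4.89-fold higher (adjusted p 3.23e-07), and the cadherin gene Cdh3 at least 3.65-fold higher (adjusted p 3.02e-04). Mybl1 levels were from -7.16 to -5.14 (median -6.58) in the vehicle mice and from -3.41 to -1.77 (median -2.55) in the treated mice. In the other direction, genes measured on all vehicle arrays and on 0 of 6 treated arrays were Kcnk10, a potassium channel (at least 3.7-fold lower), Tube1 (at least 3.1-fold), Ranbp3l (at least 2.73-fold), Akap5 (at least 2.11-fold), the arylamine acetyltransferase gene Nat1 (at least 2.01-fold) and Lyrm7 (at least 1.92-fold). Their adjusted p ranged from 3.56e-08 for Ranbp3l to 1.22e-04 for Lyrm7. A dimmer probe of Kcnk10 gave a smaller change (-0.90).

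Across all genes, the test of the difference between genotypes called 462 genes higher in LKO (2.17%) and 691 lower (3.24%). Of the 462, 321 rose in LKO, 21 fell and 120 were not called there. Of the 691, 349 were not called in LKO, and all 349 rose in LWT, which follows largely from how they were picked. Of the rest, 119 rose and 223 fell in LKO. Among genes so detected in all 4 groups, and apart from transcripts with only clone, accession or gene model names, Serpina7, Trp53inp1, Cela2a, Osgin1 and Col8a1 differed most in the higher direction. Osgin1, an oxidative stress-induced growth inhibitor, rose in LKO (1.42 ± 0.28, adjusted p 3.56e-04) and changed by -1.08 ± 0.28 in LWT (difference 2.5 ± 0.40, adjusted p 3.03e-04). Col8a1, a collagen chain, rose by 2.11 ± 0.25, adjusted p 1.74e-06, against -0.36 ± 0.25 in LWT (difference 2.47 ± 0.36, adjusted p 1.07e-04). Cela2a, an elastase, was not called in LKO (0.79 ± 0.35, adjusted p 0.0776) and changed by -1.92 ± 0.35 in LWT (difference 2.71 ± 0.49, adjusted p 0.0014). In the lower direction, Acot5, Acot3, Acot2, Ehhadh and Pdk4 differed most.

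Dim signals and probe choice moved the size of some changes by more than 1.5 times on the log2 scale without ending the call. With normexp background correction, which compresses dim signals, the bounded genes differed by less: Fgf21 (3.31), Mybl1 (1.16), Cdh3 (1.12), Kcnk10 (-0.70), Ranbp3l (-0.65), Tube1 (-0.55), Akap5 (-0.51), Lyrm7 (-0.37) and Nat1 (-0.30). The same correction reduced Hcar2 (2.68), Bmper (2.45), Fam13a (-2.03), Notumos (-1.81), Ptk6 (-1.41), Ppp1r3g (1.89), Lgr5 (-1.24), Pex10 (-0.64), Ugt1a6a (-0.83), Dkc1 (-0.55), Cyp4a14 (0.54) and Cpt1b (0.40). With the deposited series table the same held for the bounded genes, Fgf21 (3.94), Mybl1 (1.44), Cdh3 (1.39), Kcnk10 (-1.12), Ranbp3l (-1.03), Tube1 (-0.89), Akap5 (-0.98), Lyrm7 (-0.73) and Nat1 (-0.65), and for Ptk6 (-1.89), Cyp4a14 (0.61) and Cpt1b (0.38). Raising signals to the floor of their array, an alternative added after the data were seen, reduced Mybl1 (2.29), Cdh3 (1.87), Ranbp3l (-1.45), Akap5 (-1.08), Nat1 (-1.01) and Lyrm7 (-0.94). Averaging all probes of a gene reduced Pip5k1a (2.17), Psat1 (2.39), Nupr1 (1.7), Il1rn (1.35), Acsm5 (-0.95) and Ciita (-0.47). Calls were lost for Rpl18 with that average (0.12, adjusted p 0.117), for F12 (0.11, adjusted p 0.069), Rpl38 (0.085, adjusted p 0.261), Rpl10a (0.079, adjusted p 0.257), Nr1d1 (-0.62, adjusted p 0.0683) and Sp5 (-0.77, adjusted p 0.0551) with the series table, for Nr1d1 with signals raised to the floor (-0.84, adjusted p 0.0585), and for Hspa1a with a fit to the 12 LKO arrays alone (1.47, adjusted p 0.0516). In all, the fit to the 12 LKO arrays alone lost the calls of 9 of the 188 named genes called in LKO, and the setting with no filter on dim probes lost 10. The difference between genotypes for Slc22a5 (-1.48 ± 0.39, adjusted p 0.0266) was not called with no filter on dim probes (adjusted p 0.0582).

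Calls of 12 named genes were lost with single mice left out, each given here with its range of values where the call was lost. Some, such as Sp5 and Nr1d1, were lost with most mice, left out 1 at a time. Their adjusted p over all mice was near 0.05, so the loss of these calls was not particular to 1 mouse. Treated replicate 3 had the lowest level of its group for both (Sp5 -3.89, Nr1d1 -5.17), and both changes were smaller without it. Me1 (malic enzyme, up, 1.2 ± 0.42, adjusted p 0.028) was lost without treated replicate 1 or vehicle replicate 4 or 6 (0.82 to 0.99, adjusted p 0.0759 to 0.0801). Cyp2b9 (a cytochrome P450, up, 1.8 ± 0.64, adjusted p 0.0291) was lost without treated replicate 2, 5 or 6 or vehicle replicate 4 or 6 (1.42 to 1.63, adjusted p 0.0617 to 0.0843). Cyp2b10 (a cytochrome P450, up, 1.92 ± 0.66, adjusted p 0.0231) was lost without treated replicate 2 or 5 or vehicle replicate 4 or 6 (1.59 to 1.74, adjusted p 0.0537 to 0.0649). Hamp2 (a hepcidin, down, -1.48 ± 0.52, adjusted p 0.0254) was lost without treated replicate 2 or vehicle replicate 1 (-1.36 to -1.34, adjusted p 0.0548 to 0.0584). Apoa1 (apolipoprotein A-I, down, -0.25 ± 0.092, adjusted p 0.0307) was lost without treated replicate 2, 3 or 4 or vehicle replicate 4, 5 or 6 (-0.25 to -0.20, adjusted p 0.0502 to 0.0796). Slc25a15 (the ornithine carrier, up, 0.79 ± 0.27, adjusted p 0.0224) was lost without treated replicate 2 or 3 (0.59 to 0.69, adjusted p 0.0569 to 0.0692).

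The same held for genes of the ribosome, the clock and Wnt signalling. Sp5 (a Wnt target, down, -1.07 ± 0.41, adjusted p 0.0417) was lost without treated replicate 1, 2, 3 or 5 or vehicle replicate 1, 2, 3, 4 or 6 (-1.12 to -0.72, adjusted p 0.0506 to 0.127). Rpl38 (up, 0.19 ± 0.069, adjusted p 0.036) was lost without treated replicate 1, 2 or 3 or vehicle replicate 2, 3, 4 or 5 (0.16 to 0.18, adjusted p 0.0582 to 0.0909). Rpl10a (up, 0.16 ± 0.063, adjusted p 0.0418) was lost without treated replicate 1, 2, 3 or 5 or vehicle replicate 2, 3, 4 or 5 (0.13 to 0.16, adjusted p 0.0617 to 0.103). Heatr1 (of ribosome synthesis, up, 0.94 ± 0.34, adjusted p 0.03) was lost without treated replicate 2 or 3 or vehicle replicate 5 (0.53 to 0.91, adjusted p 0.0538 to 0.0575). Nr1d1 (the clock repressor REV-ERBα, down, -1.04 ± 0.41, adjusted p 0.047) was lost without treated replicate 2, 3, 4 or 5 or vehicle replicate 1, 2, 3, 4 or 5 (-1.11 to -0.68, adjusted p 0.0526 to 0.143). Angptl8 (an insulin-induced hepatokine, down, -1.54 ± 0.59, adjusted p 0.0415) was lost without treated replicate 2, 3 or 5 or vehicle replicate 3, 4, 5 or 6 (-1.57 to -1.05, adjusted p 0.0557 to 0.126). Heatr1 and Nr1d1 moved by more than 1.5 times without treated replicate 3, to 0.53 and -0.68. The difference between genotypes was called for 3 further named genes, but the call was lost when single mice were left out: Srebf1 (-1.25 ± 0.36, adjusted p 0.0445, lost in 18 of 24, adjusted p 0.0516 to 0.0812), Apobec1 (0.79 ± 0.22, adjusted p 0.0345, lost in 12 of 24, adjusted p 0.0501 to 0.0637), Ccnd1 (-1.57 ± 0.46, adjusted p 0.0488, lost in 16 of 24, adjusted p 0.0541 to 0.0877).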

How the data were processed

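Total liver RNA of 24 mice was labelled with Cy3 and hybridised to 1-colour Agilent mouse arrays, 8 per slide. Per the file headers, the authors' scanner files hold linear, background-subtracted spot intensities, from Agilent Feature Extraction 10.10.1.1 as the submitters' processing notes say. The deposited series table holds log2 values. For 31367 probes, quantile-normalized log2 median signals of the scanner files differed from it by a median of 0.000254, and 99.26% lay within 0.01, so it was used as an alternative only.

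From the intensities, log2 processed signal minus each array's log2 75th percentile was computed after removing control and outlier spots. A probe was kept where at least 4 of the 6 arrays of some group read it well above background, and the brightest kept probe stood for its gene (21331 genes). limma 3.58.1 (R 4.3.3, data.table version 1.17.8) fitted 1 mean per group over 24 arrays. The adjusted p (Benjamini-Hochberg, threshold 0.05) came from that fit, per contrast. The fit was tested on simulated data for the LKO comparison (21331 genes), with 50 genes changed at each size and independent noise. It recovered 56%, 70%, 98% and 100% of changes of 0.5, 1, 2 and 4 log2 units, with 12 false calls. The real comparison called 8596 genes and held an outlying array, so these rates need not hold there. Probe positions (mm9) and names are those of the array annotation, with names updated through RefSeq (GRCm38.p6), which matched 15163 genes by symbol, 83 by synonym and 656 by accession and left 5429 as given.

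Members and gene lists (58, and 10 of cell type markers) were chosen with earlier results of these data known. Lists share some members, so their counts are not separate from each other. Named genes were Ppara, 12 others fixed by name, the 12 largest changes each way among called genes without overlap and measured on at least 4 of 6 arrays of both groups, the largest bounds, the 3 largest called changes per list, and the 5 largest genotype differences each way. Clone and gene model names were passed over. Replicates are separate mice. Slide, normalization, background, filter and left-out mice were tried as alternatives. Some items are not reported here.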

Additional observations from a re-analysis of the deposited data

Results flagged for a closer look

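Among 384 groups of 6 tested, 2 for each of 192 named genes, 40 (10.4%) held 1 mouse whose gap to the others was large against the range of its group, where chance flags about 1 in 20. Of these, 18 were treated LKO replicate 3, and its part in the results was measured by leaving it out. Its log2 level was the highest of its group for Slc16a1 (4.62, next 3.53), Chka (3.87, next 2.01), Osmr (2.02, next 0.90), Dnajb9 (4.45, next 3.52), Heatr1 (6.21, next 4.35) and Akap12 (3.34, next 0.50). It was the lowest for Ppara (3.06, next 4.35), Serpina7 (0.32, next 3.11), Kcnk5 (-6.13, next -2.77), Fam13a (-5.14, next -3.08), Cd59a (1.45, next 1.83), Hspa1a (-1.63, next 0.78), Slc29a1 (2.71, next 4.1), Aco1 (4.04, next 4.33), Per3 (-3.07, next -1.29), Ppargc1b (-3.29, next -0.86), Angptl4 (5.11, next 5.99) and Osgin1 (4.63, next 5.61).

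Other treated mice stood apart as the highest for Slco1a1 (replicate 1, 4.03, next 3.51), Hamp2 (replicate 1, 6.29, next 4.61), Timp3 (replicate 5, 3.26, next 3.0) and Cyp4a14 (replicate 6, -2.49, next -3.39). Other treated mice stood apart as the lowest for Plin4 (replicate 1, 0.92, next 3.15), Slc38a3 (replicate 4, 5.11, next 5.65), Birc5 (replicate 4, -2.27, next -1.58), Gadd45b (replicate 6, 0.73, next 1.44) and Acot2 (replicate 6, 0.84, next 1.11). Other vehicle mice stood apart as the highest for Acsl1 (replicate 6, 7.15, next 6.8), Gpam (replicate 2, 6.69, next 5.64), Scd2 (replicate 5, 1.19, next 0.080), Fga (replicate 6, 6.14, next 5.93), Sdsl (replicate 6, 3.25, next 2.96) and Ccnd1 (replicate 6, 2.51, next 1.99). Other vehicle mice stood apart as the lowest for Keg1 (replicate 3, 3.49, next 3.8), Hamp2 (replicate 3, 4.59, next 6.14), Osmr (replicate 4, -1.52, next -1.2), Tk1 (replicate 2, 2.51, next 3.35), Gadd45b (replicate 1, -2.5, next -1.38), Rxrg (replicate 5, 0.60, next 0.89) and Adrb3 (replicate 3, 0.76, next 1.33).

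The CL316243 effect differed between LKO and LWT livers for 32 of the genes reported here by limma's test of the LKO effect minus the LWT effect, in log2 units. It was more positive in LKO for Serpina7 (3.16, adjusted p 0.00471), Trp53inp1 (2.79, adjusted p 5.91e-05), Cela2a (2.71, adjusted p 0.0014), Osgin1 (2.5, adjusted p 3.03e-04), Col8a1 (2.47, adjusted p 1.07e-04), Mybl1 (2.45, adjusted p 0.00972), Usp18 (1.64, adjusted p 0.00545), Ahr (1.42, adjusted p 0.00505), Mx2 (1.4, adjusted p 1.97e-05), Slc10a2 (1.4, adjusted p 0.0086), Cyp51 (1.1, adjusted p 0.0107), Atg14 (0.88, adjusted p 0.00569) and Apobec1 (0.79, adjusted p 0.0345). It was more negative in LKO for Acot5 (-5.43, adjusted p 2.52e-08), Cyp4a14 (-5.4, adjusted p 1.02e-05), Acot3 (-5.36, adjusted p 8.61e-06), Acot2 (-5.24, adjusted p 1.82e-09), Ehhadh (-4.77, adjusted p 2.30e-13), Pdk4 (-4.73, adjusted p 3.38e-05), Cidec (-3.28, adjusted p 1.54e-04), Cpt1b (-2.43, adjusted p 7.20e-06), Ppargc1b (-2.13, adjusted p 0.0163), Acsl1 (-1.81, adjusted p 2.90e-04), Ccnd1 (-1.57, adjusted p 0.0488), Apoa4 (-1.52, adjusted p 0.0174), Slc25a30 (-1.49, adjusted p 0.00236), Slc22a5 (-1.48, adjusted p 0.0266), Slc16a1 (-1.42, adjusted p 0.00439), Srebf1 (-1.25, adjusted p 0.0445), Ppara (-1.23, adjusted p 0.012), Hadh (-0.69, adjusted p 0.0101) and Eci2 (-0.68, adjusted p 0.00342). The values of Mybl1 and Cyp4a14 include signals below background, and with signals below the floor of their array raised to it they were 1.8 (adjusted p 0.0147) and -5.38 (adjusted p 1.87e-07). For Ppara the effect was -0.69 in LKO and 0.55 in LWT.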

How the results depend on the processing

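The count of genes called in LKO lay between 7426 and 9329 over the alternative settings that kept all mice, and between 7835 and 8894 with single mice left out. It was 3885 with a change of at least 1.5-fold required as well, and 5956 at an adjusted p under 0.01. Counts at 2-fold fell to 839 (519 higher, 320 lower) with normexp background correction and to 982 (567 higher, 415 lower) with the deposited series table. The genotype difference was called for 664 genes (237 higher, 427 lower) with no filter on dim probes, and for 2118 (992 higher, 1126 lower) with array weights. The median over all genes moved to 0.10 with no filter on dim probes, the only setting that took it past 0.1. The causes were not tested.

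Same-numbered mice did not deviate together (correlations of their deviations from -0.093 to 0.11), so the numbers were not taken to pair them. With the replicate block, 8688 genes were called in LKO. Of the 188 named genes called there, 2 lost their call under the block and 0 to 10 under each other setting that kept all mice. One alternative, raising signals below the floor of their array to it, was chosen after seeing the data, and 8325 genes were called in LKO with it.

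List medians moved by more than their replicate spread in these cases. With quantile normalization they were mitochondrial beta-oxidation (-0.12), lipoprotein genes (-0.079), negative acute phase proteins (-0.092), coagulation and fibrinolysis (-0.11), iron and metal handling (0.062), NRF2 antioxidant response (-0.097), oxidative phosphorylation subunits (-0.083), thyroid hormone handling and response (-0.19) and secreted hepatokines (0.024). With the series table they were mitochondrial beta-oxidation (-0.11), lipoprotein genes (-0.079), negative acute phase proteins (-0.092), coagulation and fibrinolysis (-0.10), iron and metal handling (0.074), NRF2 antioxidant response (-0.098), oxidative phosphorylation subunits (-0.084), thyroid hormone handling and response (-0.20) and secreted hepatokines (0.012). With normexp they were fatty acid uptake (-0.024), female-biased liver genes (-0.16) and cell cycle and replication (-0.035). With the mean of all probes of a gene they were fatty acid uptake (-0.098), phase II conjugation enzymes (-0.34), circadian clock (-0.22) and thyroid hormone handling and response (-0.22). Under that setting the changes of Psmc4 (-0.081) and Acot5 (0.49) turned sign, neither called. Within slide 1, medians were elongases and desaturases (-0.20), gluconeogenesis and cAMP-responsive genes (0.49), glycolysis and glycogen (0.15), female-biased liver genes (-0.14), chemokines and adhesion molecules (-0.022), heat shock and cytosolic chaperones (-0.079), citric acid cycle (-0.027), mitochondrial carriers (0.083), cell cycle and replication (-0.34), cAMP machinery (-0.16), secreted hepatokines (-0.0047) and extracellular matrix and fibrosis (-0.050). Within slide 2, they were PPARα target genes (0.32), carnitine shuttle (0.74), ketogenesis and ketone handling (-0.21), elongases and desaturases (0.15), complement (0.26), coagulation and fibrinolysis (0.071), iron and metal handling (0.28), interferon response (0.86), cytochrome P450 families 1 to 3 (-0.17), oxidative phosphorylation subunits (-0.078), circadian clock (0.0047) and nuclear receptors and coregulators (-0.19). Within slide 3, they were lipid droplet coat and lipolysis (0.47), bile acid synthesis and transport (-0.16), endoplasmic reticulum chaperones (0.35), cytochrome P450 families 1 to 3 (-0.38), mitochondrial carriers (0.044), autophagy and lysosome (0.11) and nuclear receptors and coregulators (-0.22). With single mice left out, medians ranged for circadian clock (-0.18 to -0.0013), elongases and desaturases (-0.14 to -0.0067), fatty acid uptake (-0.19 to -0.088), mitochondrial carriers (-0.096 to -0.011), secreted hepatokines (0.070 to 0.21) and triglyceride and phospholipid synthesis (-0.16 to -0.029). Arrays limit precision through their number and, for dim probes, through signal near background.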

Other observations

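Some of the largest responses in LKO livers came from transcripts that carry only clone or gene model names, chosen here after their values were seen. Gm34047 (chromosome 12, 36379254 to 36379313, mm9) rose by 5.92 ± 0.56, adjusted p 1.30e-07, and limma did not call its effect different between the genotypes (2.23 ± 0.80, adjusted p 0.115). Gm30692 (chromosome 8, 25527319 to 25527378) rose by 4.81 ± 0.41, adjusted p 3.28e-08, and more than in LWT by 3.43 ± 0.58, adjusted p 6.12e-04. E330037I15Rik (chromosome 10, 89206364 to 89206423) rose by 3.02 ± 0.26, adjusted p 3.11e-08, and more than in LWT by 2.55 ± 0.36, adjusted p 8.32e-05. All treated LKO mice lay above all vehicle LKO mice in these 3 transcripts, and 4445 of all 21331 genes tested showed no overlap in either direction.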
